A study of Mus musculus with 8 samples.

Results

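The Wnt ligands are secreted glycoproteins, and 9 of them (Wnt2, Wnt2b, Wnt4, Wnt5a, Wnt5b, Wnt9a, Wnt10b, Wnt11 and Wnt16) were followed in the tibial plateau of the mouse knee. Members were all probe sets whose gene symbol in the deposited table equals one of these names, which gave 15 probe sets of 45037 and 9 genes of 20667. A probe set is a group of short array probes that together measure one transcript or set of transcripts. The samples were 4 wild-type C57BL/6 mice and 4 Anp32a knockout mice, all aged 8 weeks, with 1 array each. For the knockout mice the sources used here give neither the strain nor whether the deletion covers the whole body. In both genotypes articular cartilage was removed together with the bone underneath it, with no treatment. The design asks which ligands read above background in this tissue and whether any differed by genotype.

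Wnt ligands are lipid-modified by Porcn, carried to the cell surface by Wls and bound by frizzled receptors, with Lrp5 or Lrp6 as partners for the branch that stabilises beta-catenin and with Ror or Ryk receptors for other branches. In the skeleton they are known for joint formation, for the order of chondrocyte maturation in the growth plate, and for bone formation. Wnt9a, Wnt4 and Wnt16 are known from the developing joint, Wnt5a and Wnt5b from the growth plate, and Wnt10b as a stimulator of bone formation.

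All levels below are log2 values, given as mean ± SD with n = 4 per genotype, and differences are knockout minus wild type on that scale with a 95% interval. WT1 to WT4 and KO1 to KO4 denote the single arrays. In a bulk sample fewer cells of a type and less RNA per cell cannot be told apart. The targeted gene was read by 3 probe sets. Probe set 1450407_a_at of Anp32a, a nuclear phosphoprotein gene, read 9.95, 9.91, 9.76 and 9.91 in WT1 to WT4 and 4.98, 4.05, 4.33 and 5.04 in KO1 to KO4, where it was called absent. The other 2 probe sets of Anp32a were present on all 8 arrays and read lower in the knockout without overlap. Probe set 1421918_at differed by -0.45 (limma adjusted p = 0.0641) and 1434555_at by -0.51 (limma adjusted p = 0.0555). All 8 chondrocyte markers and all 7 measured osteoblast and osteocyte markers were present on all 8 arrays, so defining markers of cartilage and of bone were both found. All 10 skeletal muscle markers and 9 erythroid markers were present on all 8 arrays too, and several marker lists differed in level between arrays. The skeletal muscle list mean, as a deviation from the mean of all arrays, lay between 0.24 and 0.36 in wild type and at 0.04, -0.92, -0.49 and 0.20 in KO1 to KO4. The osteoblast and osteocyte list mean ran from -0.25 to -0.05 in wild type and from -0.01 to 0.34 in knockout. Within that list Dmp1, Phex and Sost differed by 0.65, 0.71 and 0.68, and Ibsp, Alpl, Mepe and Sp7 by -0.01, -0.10, 0.13 and 0.21. The erythroid list mean ran from -1.26 to 0.30 and from -0.47 to 0.99, and the B cell list mean, with 5 of 8 markers present on all arrays, from -0.39 to -0.07 and from 0.02 to 0.74. Groups did not overlap for the muscle, bone and B cell lists, and KO2 and KO3 stood apart on the muscle list. Fits with the muscle or the erythroid list mean as a covariate are given beside the ligands whose values they moved. Because the muscle list mean did not overlap between genotypes, a fit with it cannot separate its part from that of genotype. The part of the other lists in the ligand values was not tested.

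Of the 9 ligands, 5 were above background in both genotypes and 4 in neither. A ligand was counted as above background in a genotype where at least 1 of its probe sets had a present call on all 4 arrays. Wnt9a, Wnt4, Wnt5a, Wnt5b and Wnt11 met this in wild type and in knockout. Every probe set of Wnt16, Wnt10b, Wnt2 and Wnt2b was called absent on all 8 arrays. Of the 15 probe sets, 8 were present on all 8 arrays, 5 were absent on all 8, and the other 2, both of Wnt5a, had mixed calls. Across the array design 50.1% of probe sets were present on all 8 arrays and 28% absent on all 8. The calls are no threshold on the level, since the highest value called absent lay between 10.73 and 12.22 on the different arrays and the lowest value called present between 3.06 and 3.25. Counting marginal calls as present, asking for 3 arrays of a genotype or for 1 array of the 8, or taking the brightest probe set of each ligand gave the same 5 ligands.

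**Figure D1:**
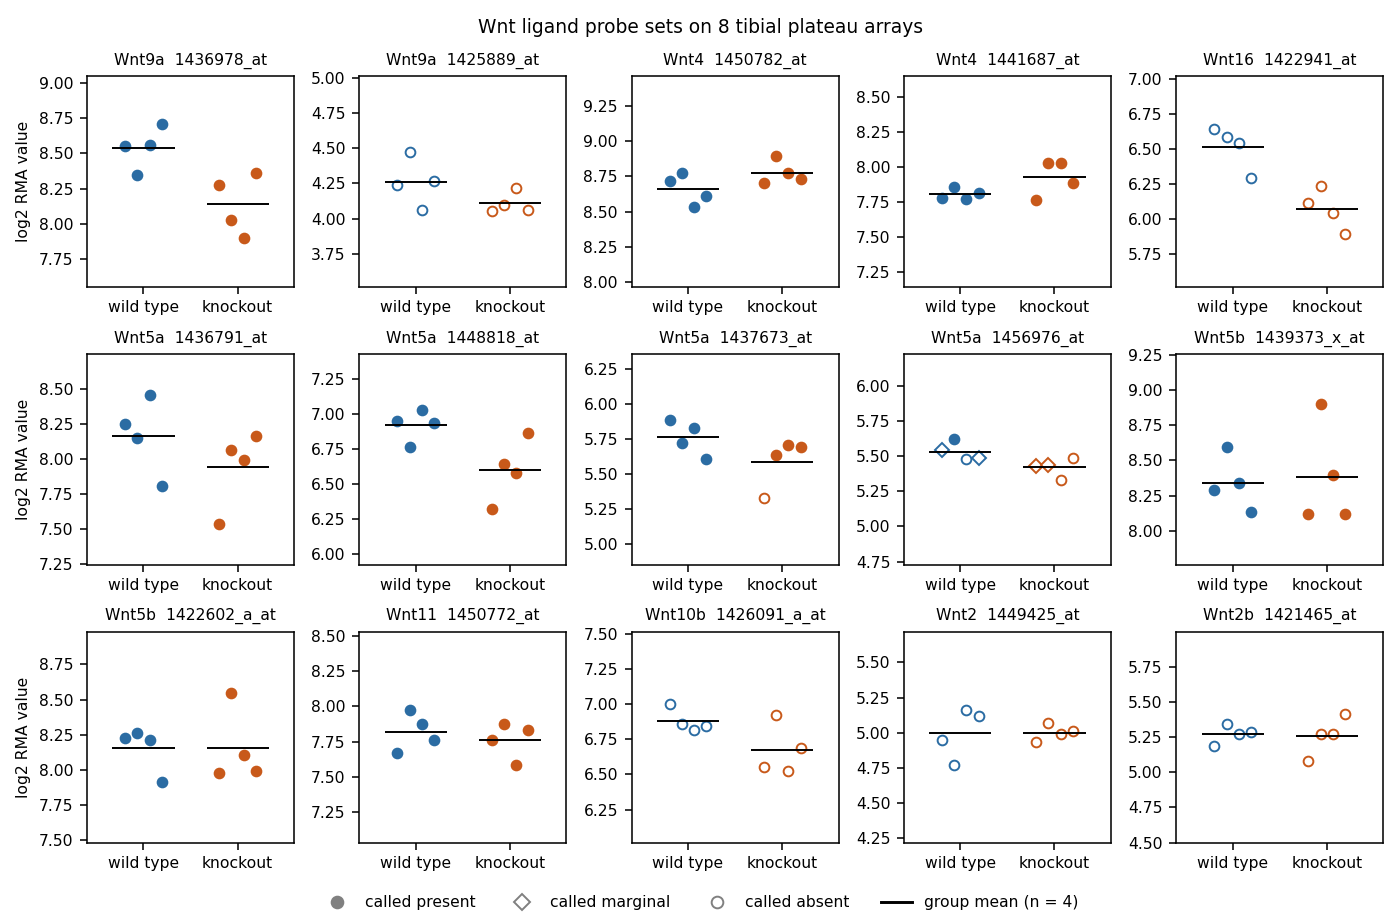
Log2 value (vertical axis, own range for each panel) of each Wnt ligand probe set on each array, wild type in blue and knockout in orange, filled where called present, an open diamond where marginal and an open circle where absent, with a line at the mean of each genotype. For Wnt16 every knockout value lies below every wild-type value, on arrays where all calls were absent, while for Wnt9a 1436978_at KO4 and WT2 nearly coincide.

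No Wnt ligand probe set passed the test between genotypes, whichever ligand was read. The test was limma with Benjamini-Hochberg adjustment over all 45037 probe sets and a threshold of 0.05, which called 0 of 15 ligand probe sets against 24 probe sets in all (0.0533%). At an unadjusted p under 0.05, 3 of the 15 (20%) were found, against 18.3% of all probe sets, a share near the background. Those 3 were Wnt9a 1436978_at, Wnt16 1422941_at and Wnt5a 1448818_at, and all 3 were lower in the knockout, where 8.74% of all probe sets were lower and 9.53% higher at that threshold. Groups did not overlap for 1 of the 15 (6.67%), Wnt16, which was lower, against 5.07% of all probe sets, and for 0 in the higher direction against 4.35%. Of the 15 probe sets, 11 (73.3%) read lower in the knockout and 4 higher, with a median difference of -0.11, where 46% of all probe sets read lower and the median was 0.01. Among the 8 ligand probe sets present on all 8 arrays, 4 read lower and the median was -0.03, against 0.03 for all probe sets present on all 8. The count of calls depended on KO4. Without KO4, 7.95% of all probe sets passed, and 3 of the 15 (20%) did so, all 3 lower, against 3.94% of all probe sets that passed and were lower.

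**Figure D2:**
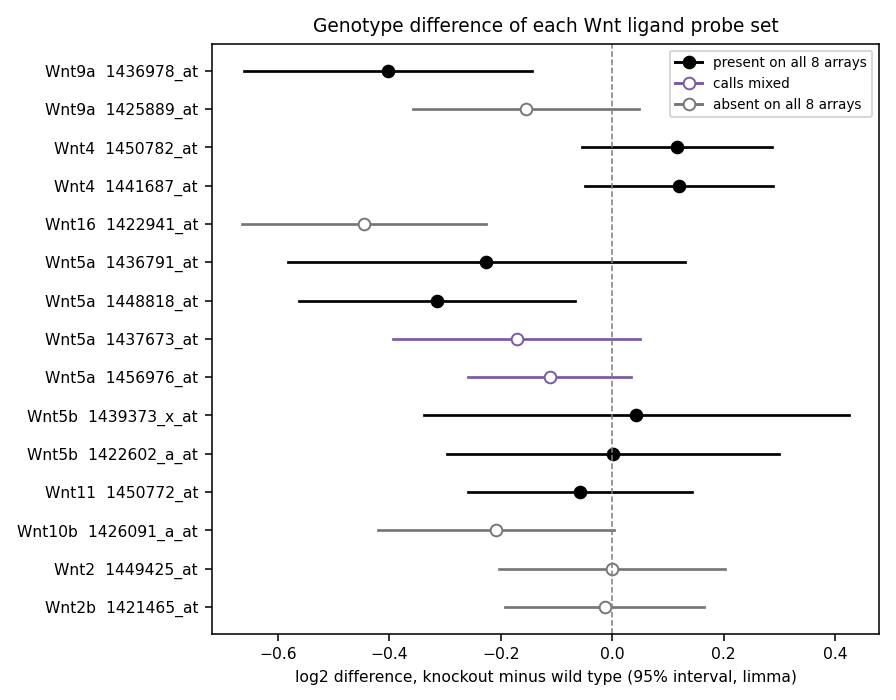
Log2 difference (horizontal axis, knockout minus wild type) of each Wnt ligand probe set with its 95% interval, filled where the probe set was present on all 8 arrays. The intervals of Wnt9a 1436978_at, Wnt16 and Wnt5a 1448818_at lie below 0 before adjustment over all probe sets, and the other 12 reach across 0.

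The promoters of Wnt9a and Wnt4 are shown as those of detected ligands that read lower and higher in the knockout, and that of Wnt16 as the undetected ligand with the lowest p. All 3 sequences are from RefSeq (build GRCm38.p6), 5′ to 3′ on the gene's strand, with capitals at GGGCGG or its reverse complement, the GC box bound by SP family factors. They were chosen after the values were seen and end before the RefSeq gene start. The Wnt9a window is chr11:59306680-59306848, plus strand, that of Wnt4 is chr4:137277385-137277634, plus strand, and that of Wnt16 is chr6:22287977-22288177, plus strand.
Wnt9a: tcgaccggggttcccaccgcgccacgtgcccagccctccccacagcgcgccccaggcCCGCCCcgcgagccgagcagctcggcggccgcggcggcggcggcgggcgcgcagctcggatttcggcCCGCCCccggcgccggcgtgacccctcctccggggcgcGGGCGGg
Wnt4: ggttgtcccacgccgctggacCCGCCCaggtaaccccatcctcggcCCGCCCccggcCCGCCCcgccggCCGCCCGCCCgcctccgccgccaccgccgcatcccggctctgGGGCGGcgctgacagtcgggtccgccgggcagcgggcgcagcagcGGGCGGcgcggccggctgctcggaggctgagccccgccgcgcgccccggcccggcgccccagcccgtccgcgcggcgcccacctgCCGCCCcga
Wnt16: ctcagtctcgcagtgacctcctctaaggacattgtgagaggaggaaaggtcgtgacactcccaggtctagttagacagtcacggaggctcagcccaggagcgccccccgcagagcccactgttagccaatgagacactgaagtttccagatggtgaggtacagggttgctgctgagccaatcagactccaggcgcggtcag
GC content, CpG dinucleotides and motifs were counted over 250 bases of each promoter. For Wnt9a and Wnt16 these run past the RefSeq gene start and the printed windows, which hold 169 and 201 bases. The GC content was 84.4% for Wnt9a, 85.2% for Wnt4 and 59.2% for Wnt16, against a median of 52.4% over 32851 promoters of the table. CpG dinucleotides numbered 48, 44 and 9, against a median of 6. GGGCGG, searched on both strands with overlapping matches counted, occurred 5 times for Wnt9a, of which 3 are in the printed window, 8 times for Wnt4 and 0 times for Wnt16, and 32.7% of all promoters held it. CTTTGA, the core of the TCF/LEF motif, was found on neither strand in any of the 3, and 13.8% of all promoters held it. A match is a description of these letters only. Promoters of 8 of the 9 ligands were in the table, with 11 start sites.

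Wnt9a, a ligand that marks the developing joint and restrains cartilage formation there, read lower in the knockout without passing the test. Probe set 1436978_at of Wnt9a read 8.55, 8.35, 8.56 and 8.71 in WT1 to WT4 and 8.28, 8.02, 7.90 and 8.36 in KO1 to KO4. The groups overlapped only in KO4, which lay just above WT2, and KO3 was lowest. The means were 8.54 ± 0.15 in wild type and 8.14 ± 0.22 in knockout, a difference of -0.40 (-0.66 to -0.14), with a limma adjusted p of 0.151. On the linear scale the knockout level was 0.757 of wild type (95% interval 0.633 to 0.906). Without KO4 the difference was -0.48 and it passed (limma adjusted p = 0.0397). The low arrays KO2 and KO3 were also those with the lowest muscle list means, -0.92 and -0.49, and with the highest osteoblast and osteocyte list means, 0.34 and 0.18. With the muscle list mean as a covariate the difference was -0.18 (limma adjusted p = 0.845), though that mean did not overlap between genotypes. With the erythroid list mean the difference was -0.32 (limma adjusted p = 0.691), and without KO2 and KO3 it was -0.22. The second probe set, 1425889_at, was absent on all 8 arrays at 4.26 ± 0.17 and 4.11 ± 0.08 (limma adjusted p = 0.406), and it followed the first with r of only 0.12 over the arrays.

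**Figure D3:**
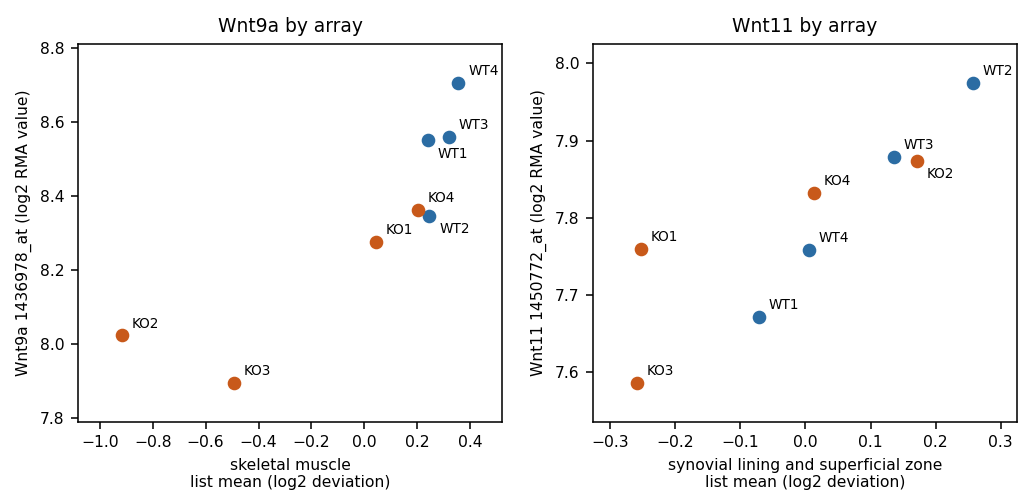
Wnt9a 1436978_at against the skeletal muscle list mean (left) and Wnt11 1450772_at against the synovial lining and superficial zone list mean (right), each point 1 array, blue wild type and orange knockout, axes on the log2 scale. KO2 and KO3 lie at the low end of both axes for Wnt9a, and for Wnt11 the genotypes are mixed along both axes.

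Wnt4, which signals in the joint and in the growth plate, read slightly higher in the knockout with overlapping groups. Probe set 1450782_at read 8.72, 8.78, 8.53 and 8.61 in WT1 to WT4 and 8.70, 8.90, 8.78 and 8.73 in KO1 to KO4. Its means were 8.66 ± 0.11 and 8.78 ± 0.09, a difference of 0.12 (-0.05 to 0.29, limma adjusted p = 0.462). KO2 was highest and WT3 lowest. Probe set 1441687_at read 7.78, 7.86, 7.77 and 7.81 in wild type and 7.76, 8.03, 8.03 and 7.88 in knockout, with a difference of 0.12 (-0.05 to 0.29, limma adjusted p = 0.439). Both intervals include 0 and reach up to 0.29. Both probe sets moved together over the arrays (Pearson r = 0.74, Spearman rho = 0.83, as a description over 8 arrays). With the muscle list mean as a covariate they gave 0.02 and 0.0038, and with the erythroid list mean 0.06 and 0.12. The osteoblast and osteocyte list mean, which also did not overlap between genotypes, was highest on KO2 at 0.34.

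Wnt16, a ligand made in bone and cartilage that is known to support cortical bone, gave the smallest p among the ligands, on arrays where it was never called present. It read 6.65, 6.58, 6.55 and 6.29 in WT1 to WT4 and 6.11, 6.23, 6.04 and 5.90 in KO1 to KO4. Every knockout array lay below every wild-type array, with WT4 at 6.29 and KO2 at 6.23 nearest to each other. The means were 6.52 ± 0.15 and 6.07 ± 0.14 (limma unadjusted p = 0.00113, limma adjusted p = 0.134), and no fold is given because the probe set was absent on all arrays. Without KO4 the limma adjusted p was 0.0464. With the muscle list mean as a covariate the gap between the genotypes was wider (limma unadjusted p = 0.000765, limma adjusted p = 0.699). That mean did not overlap between genotypes, so this fit cannot separate its part from that of genotype. With the erythroid list mean the limma unadjusted p was 0.00133 and the limma adjusted p 0.473. Among all probe sets absent on all 8 arrays, 5.19% had an unadjusted p under 0.05.

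Wnt5a, which acts mainly through branches that do not use beta-catenin, was read by 4 probe sets, all lower in the knockout on average and none past the test. The probe set with the highest value, 1436791_at, read 8.25, 8.15, 8.46 and 7.81 in WT1 to WT4 and 7.54, 8.07, 7.99 and 8.16 in KO1 to KO4. The ranges overlapped, and WT4 was low among the wild types and KO1 lowest of all. Its difference was -0.23 (-0.58 to 0.13, limma adjusted p = 0.503), from 8.17 ± 0.27 to 7.94 ± 0.28. Without KO1 it was -0.09, with the erythroid list mean as a covariate -0.02, and with the muscle list mean -0.32. Probe set 1448818_at read 6.95, 6.76, 7.03 and 6.93 in wild type and 6.32, 6.64, 6.58 and 6.86 in knockout. Here 3 of 4 knockout arrays lay below every wild type, and KO4 lay within the wild-type range. Its difference was -0.31 (-0.56 to -0.07, limma adjusted p = 0.19), and without KO4 it was -0.40 and passed (limma adjusted p = 0.0442). With the erythroid list mean as a covariate it was -0.14, and with the muscle list mean -0.30. KO1, the lowest array for both, had the highest erythroid list mean, 0.99. Probe set 1437673_at, present on 7 arrays and absent on KO1, differed by -0.17 (-0.39 to 0.05, limma adjusted p = 0.398). Its difference was -0.08 without KO1 and -0.11 with the erythroid covariate, but -0.25 both with the muscle covariate and without KO2 and KO3. Probe set 1456976_at was present on 1 array and differed by -0.11 (-0.26 to 0.03, limma adjusted p = 0.402). The first 3 of these moved together over the arrays at r from 0.76 to 0.92, as a description, while the fourth followed them at r from 0.35 to 0.48.

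Wnt5b, a ligand of growth plate chondrocytes, did not pass the test in either probe set, and both had their highest value on the same array. Probe set 1439373_x_at read 8.29, 8.59, 8.34 and 8.13 in WT1 to WT4 and 8.12, 8.90, 8.39 and 8.12 in KO1 to KO4. Probe set 1422602_a_at read 8.23, 8.26, 8.21 and 7.91 in wild type and 7.98, 8.55, 8.10 and 7.99 in knockout. KO2 was the highest array for both, while KO1 and KO4 lay below at least 3 of the 4 wild types in each. Differences were 0.04 (-0.34 to 0.42, limma adjusted p = 0.93) and 0.0016 (-0.30 to 0.30, limma adjusted p = 0.997), and their direction turned under several settings. Without KO2 both gave -0.13, and with the muscle list mean as a covariate they gave -0.37 and -0.29 (limma adjusted p = 0.845 for each). The hypertrophic chondrocyte list mean was also highest on KO2, at 0.44. The suffix of the x_at probe set marks probes that may also match other transcripts, and the pair moved together at r = 0.94 over the 8 arrays.

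Wnt11, known for its part in cell movements and in non-canonical signalling, did not differ beyond the spread between arrays. It read 7.67, 7.97, 7.88 and 7.76 in WT1 to WT4 and 7.76, 7.87, 7.59 and 7.83 in KO1 to KO4. KO3 lay below every wild type and WT2 and WT3 above every knockout, and the other 5 arrays overlapped. The difference was -0.06 (-0.26 to 0.14, limma adjusted p = 0.798), from 7.82 ± 0.13 to 7.76 ± 0.13, and 0.03 with the erythroid list mean as a covariate. Over the 8 arrays Wnt11 ran with the mean of the 3 markers of synovial lining and superficial cartilage zone, Prg4 among them (Pearson r = 0.87, exact permutation p = 0.00553, adjusted p = 0.0744; Spearman rho = 0.90, exact permutation p = 0.00456, adjusted p = 0.0913; r = 0.95 without KO1 and KO3). The 3 markers were Prg4, Cd55 and Has2, and Cd55 read 9.94 ± 0.03 in wild type and 9.46 ± 0.18 in knockout. Wnt11 also ran with the chondrocyte list (r = 0.76, exact permutation adjusted p = 0.192, and 0.75 without KO2 and WT2). With the skin list r was 0.71 (exact permutation adjusted p = 0.197), but only 1 of its 3 markers was present on all 8 arrays. With the B cell list r was -0.73 (exact permutation adjusted p = 0.192), and -0.0072 without KO3 and WT2. The relation with the synovial lining and superficial zone list was 1 of 60 such relations of 5 ligands with 12 marker lists. Of the 60, 0 passed after adjustment. The same adjusted p of 0.0744 for Pearson's r, by exact permutation, was reached by 4 others. Wnt9a ran against the osteoblast and osteocyte list (r = -0.88, exact permutation p = 0.00397; rho = -0.90, exact permutation p = 0.00456, adjusted p = 0.0913; r = -0.81 without KO2 and KO3). Wnt4 ran with that list (r = 0.88, exact permutation p = 0.00362; rho = 0.86, exact permutation p = 0.0107, adjusted p = 0.161; r = 0.74 without KO2 and KO3). Wnt5b ran with the hypertrophic chondrocyte list (r = 0.92, exact permutation p = 0.00583; rho = 0.60, exact permutation p = 0.132, adjusted p = 0.441), a relation that rests on KO2 and WT2, since r was 0.25 without them. The permutations pooled both genotypes, and the osteoblast and osteocyte list did not overlap between them. The relations of Wnt9a and Wnt4 with that list therefore cannot be told apart from a genotype difference. The fourth was Wnt9a with the muscle list (r = 0.87, exact permutation p = 0.0062, rho = 0.90, and r = 0.85 without KO2 and KO3). The muscle list did not overlap between genotypes either, so this relation too cannot be told apart from a genotype difference.

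Wnt10b, Wnt2 and Wnt2b were absent on all 8 arrays, and no fold is given for them. Wnt10b, which stimulates bone formation and restrains fat cells, read 7.005, 6.86, 6.81 and 6.85 in WT1 to WT4 and 6.56, 6.92, 6.52 and 6.69 in KO1 to KO4. KO1 and KO3 lay lowest and KO2 above 3 wild types, with means of 6.88 ± 0.08 and 6.67 ± 0.18 (limma adjusted p = 0.282). With the muscle list mean as a covariate the gap between the genotypes was wider (limma unadjusted p = 0.0204, limma adjusted p = 0.845). Wnt2, which is known from lung development, read 4.77 to 5.16 in wild type and 4.93 to 5.07 in knockout (limma adjusted p = 0.999). Wnt2b, known from eye and lung development, read 5.27 ± 0.06 and 5.26 ± 0.14 (limma adjusted p = 0.955). The wild-type and knockout ranges overlapped in all 3.

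**Figure D4:**
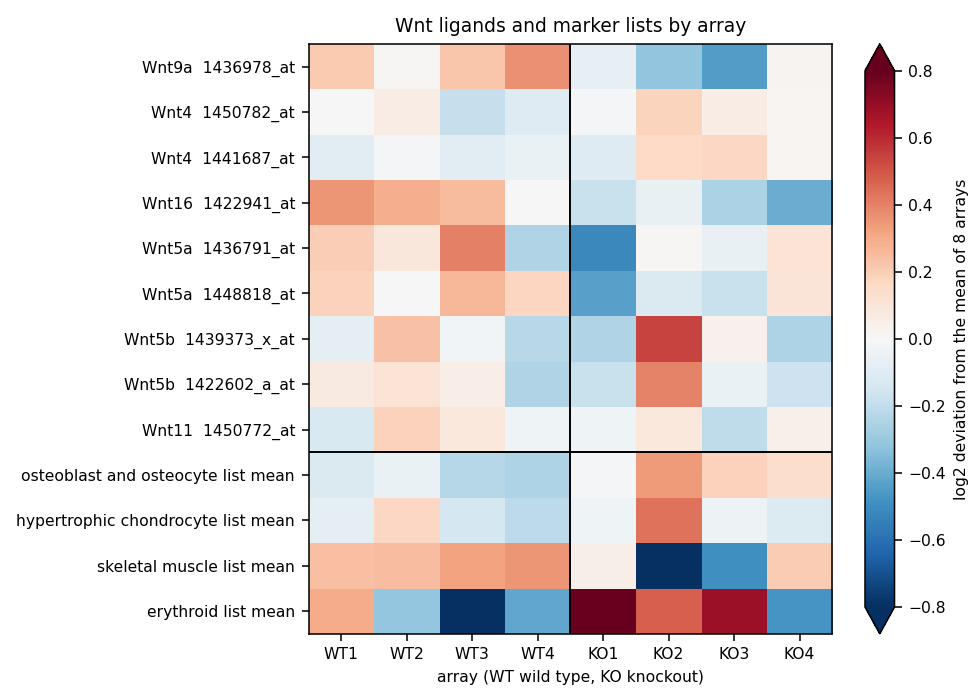
Deviation of each array from the mean of 8 arrays (colour, log2 scale, limited at ±0.8 of the scale) for the ligand probe sets present on all 8 arrays plus Wnt16, and for 4 marker list means below the line. Knockout arrays are right of the vertical line, and KO2 stands out low for muscle and high for Wnt5b.

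The ligands did not all move together over the arrays. Taking the probe set with the highest mean of each detected ligand, Wnt9a and Wnt4 ran against each other (r = -0.76, rho = -0.81) and Wnt4 and Wnt5b ran in the same direction (r = 0.67, rho = 0.57). These are descriptions over 8 arrays that share tissue makeup and normalization. The named probe sets most like each ligand over the 8 arrays, among 19988 present on all 8, were Gadd45gip1 (r = 0.996), the microtubule-end linker Clip1 (0.99) and the repair enzyme DNA polymerase beta gene Polb (0.99) for Wnt9a. For Wnt4 they were Etnk1 (0.99), an ethanolamine kinase, Asns (0.98), asparagine synthetase, and Papd7 (0.98). For Wnt5a they were Txndc16 (0.98), Dync2li1 (0.97) and Snapc3 (0.96), for Wnt5b Mthfsd (0.98), Tug1 (0.98) and Tmem167 (0.97), and for Wnt11 Lrig3 (0.98), Kank1 (0.98) and Trabd2b (0.97).

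Around the ligands, 48 other genes of the pathway were measured by 110 probe sets, and 0 of these passed the test. At an unadjusted p under 0.05, 5 were lower and 7 higher in the knockout, 12 in all (10.9%), against 18.3% of all probe sets, a share below the background. The median difference was -0.02, against 0.01 over all probe sets. Of the 48 genes, 31 were above background in at least 1 genotype. The 10 other Wnt ligands, from Wnt1 to Wnt10a, held none of these, and the 17 probe sets of that list had none present on all 8 arrays. Wnt7a, known from limb and nervous system development, had the smallest p of them. Its probe set 1447647_at was present on 4 of 8 arrays at 7.90 ± 0.01 and 8.10 ± 0.13, without overlap (limma adjusted p = 0.198). Its other probe sets, 1423367_at and 1458334_at, were absent on all 8 arrays and differed by 0.016 and -0.014.

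Of 10 frizzled receptor genes, 9 were detected, all but Fzd10. Fzd7 read 9.81 ± 0.18 in wild type and 9.37 ± 0.29 in knockout, a difference of -0.45 (-0.77 to -0.12, limma adjusted p = 0.17). Fzd4, a receptor with a role in vessels, differed by -0.42 (-0.78 to -0.06, limma adjusted p = 0.211), with -0.30 and -0.31 by its other 2 probe sets, and Fzd5 by 0.22 (0.02 to 0.43, limma adjusted p = 0.242). Of 6 co-receptor genes 4 were detected, and the lowest p among them belonged to Lrp6 (7.69 ± 0.13 against 7.53 ± 0.04, limma adjusted p = 0.283) and Ror1 (6.98 ± 0.08 against 6.78 ± 0.30, limma adjusted p = 0.443).

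All 3 genes of ligand maturation and release were detected. Notum, an enzyme that removes the lipid from Wnt ligands, read 7.49 ± 0.14 and 7.79 ± 0.19 (0.30, limma adjusted p = 0.19), and probe set 1423825_at of Wls read 9.51 ± 0.15 and 9.27 ± 0.23 (-0.24, limma adjusted p = 0.32). The other 2 Wls probe sets present on all 8 arrays differed by -0.07 and -0.04. Among 9 feedback target genes, Dkk1, a secreted inhibitor of Lrp5 and Lrp6, had the largest difference of all pathway lists. Its probe set 1458232_at read 7.03, 6.82, 7.04 and 6.65 in WT1 to WT4 and 7.04, 7.97, 7.63 and 7.70 in KO1 to KO4, so 3 knockout arrays stood above every wild type and KO1 lay within the wild-type range. The difference was 0.70 (0.30 to 1.10, limma adjusted p = 0.14), and the other Dkk1 probe set gave 0.61 (limma adjusted p = 0.14). Tcf7, a transcription factor of the pathway, differed by 0.29 (limma adjusted p = 0.257), while Axin2, a common readout of beta-catenin signalling that was present on 7 arrays, differed by -0.11 (limma adjusted p = 0.579).

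In the core, Gsk3b, the kinase that marks beta-catenin for degradation, read 7.62 ± 0.07 and 7.35 ± 0.12 by probe set 1434439_at, a difference of -0.28 without overlap (limma adjusted p = 0.148), while its 6 probe sets ran from -0.28 to 0.13. Tcf7l1, a repressor of target genes, read 8.13 ± 0.04 and 8.28 ± 0.10 (limma adjusted p = 0.279). Without KO4, 4 of the 110 passed, against 7.95% of all probe sets. They were Gsk3b (-0.32), Fzd7 (-0.54), a further Fzd4 probe set, 1449416_at (-0.37), and Rnf43, which read higher in the knockout. This Fzd4 probe set was present on 2 of 8 arrays, and Rnf43 was absent on all arrays.

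**Figure D5:**
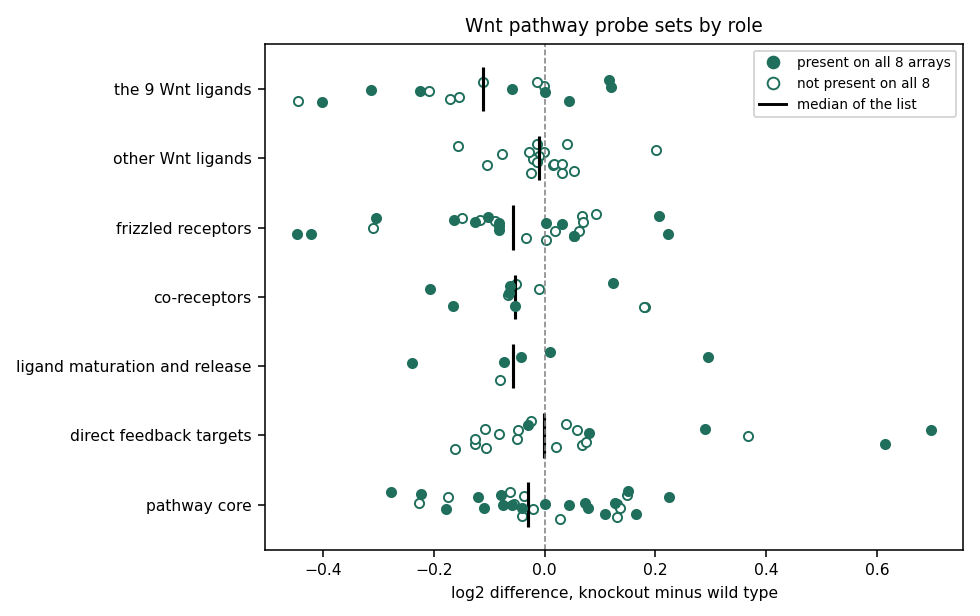
Log2 difference (horizontal axis, knockout minus wild type) of each probe set of the 9 Wnt ligands (top row) and of the 110 probe sets of 6 pathway lists below. Points are filled where present on all 8 arrays, with the median of each row as a bar. Dkk1 holds the 2 points farthest to the right, at 0.61 and 0.70.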

How the data were processed

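RNA of 8 mouse tibial plateau samples was hybridised as biotin-labelled cRNA, following Affymetrix instructions per the labels. Per the submitters' processing notes, the authors computed the deposited log2 values of each probe set with RMA (robust multi-array average). RMA includes quantile normalization, which can hide a shift shared by most genes. The sources used here do not name the array design, software versions or genome build. The detection calls and the authors' p-values come from the deposited table, per the file headers, and were used only for calls and as a check: recomputed log10 p differed by at most 0.00114. Probe sets with no symbol (6889) or with a date as symbol (62) stayed unnamed, and 64 rows without an identifier were left out.

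Each of 45037 probe sets was fitted with limma 3.58.1 in R 4.3.3 (two-sided, genotype the only term, threshold 0.05), with Benjamini-Hochberg adjustment over all of them. The number of arrays, 4 per genotype, limits the precision. Each array is 1 numbered mouse per the file headers, and a p-value here measures the spread among these samples only. The fit was tested on simulated data. Members, gene lists and tests were chosen with earlier results of these data known. All members were named, and from each pathway list the 2 genes of smallest unadjusted p among probe sets present on at least 4 of 8 arrays, with the 3 most correlated genes per detected ligand. Fzd5, Axin2, further Dkk1, Gsk3b, Fzd4 and Wls probe sets and Rnf43 were added after their values were seen. Alternatives covered normalization, a filter on calls, 1 value per gene, array weights, a replicate block, marker list covariates and left-out arrays.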

Additional observations from a re-analysis of the deposited data

Results flagged for a closer look

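In the wild-type group of Wnt5b probe set 1422602_a_at, WT4 read 7.91, far below the other 3 wild types, which lay between 8.21 and 8.26. The gap to the nearest array was 0.844 of the range of the group, above Dixon's critical value for 4 samples at the 95% level. This was 1 of 30 groups checked, and chance flags about 1 in 20 groups. Without WT4 the difference of this probe set was -0.08.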

How the results depend on the processing

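Under all alternatives but 1, 0 ligand probe sets passed; the exception was leaving out KO4. Leaving out each array in turn gave 0 to 3 called ligand probe sets, 0 to 4 called pathway probe sets and 7 to 19 pathway probe sets at an unadjusted p under 0.05, against 12 with all arrays. The latter count was 2 with the muscle covariate and 7 without KO2 and KO3, and 1 ligand probe set stayed under 0.05 with the erythroid covariate, against 3. Calls over all probe sets, 24 with all arrays, were 3579 without KO4, 41 with array weights, 11 with 1 probe set per gene, 5 with the muscle covariate, 11 with the erythroid covariate, 7 without KO2 and KO3, and 14, 9, 10 and 14 without WT1 to WT4. The causes were not tested. Of the alternatives per probe set, 228 kept direction and side of the threshold, 3 newly passed and 21 turned direction, all of Wnt5b, Wnt11, Wnt2 and Wnt2b. Wnt5b 1439373_x_at gave -0.37 with the muscle covariate, -0.22 without KO2 and KO3, and -0.13 to 0.13 with 1 array left out. Wnt5b 1422602_a_at gave -0.0124 after quantile normalization, -0.0088 after median centring, -0.29 with the muscle and -0.024 with the erythroid covariate, -0.17 without KO2 and KO3, and -0.13 to 0.061 with 1 array left out. With the erythroid covariate Wnt11 gave 0.027, Wnt2 0.084 and Wnt2b 0.087. With 1 array left out they gave -0.11 to 0.0008, -0.077 to 0.054 and -0.066 to 0.045. A mean over all probe sets of a gene, chosen after seeing the data, gave -0.28 for Wnt9a, -0.21 for Wnt5a and 0.12 for Wnt4, with 0 passing.

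Deviations of same-numbered arrays from their genotype means correlated at r = 0.07, 0.51, -0.34 and 0.30. Differently numbered arrays were not compared, so these values cannot decide whether the numbers pair the samples. With the replicate block 0 ligand probe sets passed, and Wnt9a 1436978_at gave -0.40 (limma adjusted p = 0.125).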
